A study of Mus musculus with 24 samples.

Results

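Schwann cell genes were followed in mouse lumbar spinal cord through 9 genes, taken from the count table by their symbols: Prx, Drp2, Pmp22, Pmp2, Ncmap, Egr2, Gldn, Scn7a and Ngfr. They were 9 of 55418 genes in the table, and all 9 were found and tested. The spinal cord proper is myelinated by oligodendrocytes, so RNA of peripheral glia in a cord sample can be carried by pieces of spinal root left on it, and the level of these genes per library served as a measure of attached root. In bulk RNA, fewer cells of a type and less RNA per cell cannot be told apart.

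Bulk RNA was sequenced from the L4-L6 cord of 24 C57BL/6J mice, aged 8 to 10 weeks at the start. Knockout mice lacked Chrna7, the alpha 7 nicotinic receptor gene, in myeloid cells. Knockouts given paclitaxel, knockouts given vehicle, wild-type mice given paclitaxel and wild-type mice given vehicle each comprised 3 males and 3 females. Paclitaxel, a taxane that stabilises microtubules, was injected 4 times at 1 mg/kg in a Kolliphor, ethanol and water vehicle, and the cord was collected on day 7, counted from the first injection. The sources used here do not name the driver that restricted the deletion to myeloid cells.

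Schwann cells wrap peripheral axons one segment at a time. The transcription factor EGR2 turns on their myelin genes, and the compacted sheath is tied to the surrounding basal lamina by a complex of periaxin with dystroglycan-linked proteins. Non-myelinating Schwann cells keep bundles of thin axons and carry other surface proteins, among them the low-affinity neurotrophin receptor.

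Each library held 88812295 to 112158154 counts. Wild-type female paclitaxel replicate 3 stood apart from the other 23 libraries. In that library, all 13 genes of a dorsal root ganglion neuron list lay above every cord, and all 8 oligodendrocyte, 5 astrocyte and 5 microglia genes lay below every cord. It is called the ganglion-like library here, and the comparisons below use the other 23 cords, of which 5 are wild-type paclitaxel cords. In the 23 cords Chrna7 lay at 9.09 to 14.5 CPM (counts scaled to the library total) in knockouts and 9.38 to 15.9 CPM in wild-type mice. Whole cord holds neurons that transcribe this gene, so its level does not check a loss restricted to myeloid cells.

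The promoters of 3 of the genes are shown because Prx is the gene the other values are set against, Pmp22 follows it most closely among the 9, and Scn7a is among the 2 that stand furthest out in the ganglion-like library. Each run is the 250 bases before the first start listed by RefSeq, on the strand of the gene, in GRCm38.p6.
Prx, chr7:27499074-27499323, plus strand: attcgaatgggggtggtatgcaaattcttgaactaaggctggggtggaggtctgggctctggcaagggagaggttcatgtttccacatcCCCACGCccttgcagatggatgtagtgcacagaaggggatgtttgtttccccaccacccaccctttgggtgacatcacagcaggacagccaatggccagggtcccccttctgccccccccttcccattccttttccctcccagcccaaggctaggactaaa
Pmp22, chr11:63128732-63128981, plus strand: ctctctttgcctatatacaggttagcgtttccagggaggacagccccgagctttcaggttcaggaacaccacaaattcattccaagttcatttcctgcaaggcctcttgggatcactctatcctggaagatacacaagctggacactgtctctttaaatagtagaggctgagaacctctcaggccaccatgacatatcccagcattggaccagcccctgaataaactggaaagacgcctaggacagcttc
Scn7a, chr2:66784911-66785160, minus strand: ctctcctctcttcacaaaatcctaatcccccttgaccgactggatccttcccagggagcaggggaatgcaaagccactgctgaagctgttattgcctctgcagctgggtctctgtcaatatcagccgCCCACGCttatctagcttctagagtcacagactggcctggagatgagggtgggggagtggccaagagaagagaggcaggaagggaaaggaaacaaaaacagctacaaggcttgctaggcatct
Capitals mark GCGTGGG, the core recognised by EGR factors, or its reverse complement CCCACGC. RefSeq windows were at hand for 7 of the 9 genes, without Drp2 and Pmp2, and these 7 have 15 windows in all. A match on either strand was found in 3 of the 15 windows, 1 each of Prx, Ncmap and Scn7a, against 4.30% of 32851 windows of all genes. The SOX core ACAAAG, or CTTTGT, was in 0 of the 15 windows, against 16.5% of all windows. These were 2 of 10 short motifs searched, and they were chosen for display after the matches of all 10 had been seen. Of the other 8, GTGGGNG, which overlaps the EGR core, was in 4 of the 15 windows, against 28.1% of all windows, and GGGNGG in 14 of 15, against 64.5%. GGGTGGG was in 3 of 15 windows against 15.8%, ACAAAN in 5 of 15 against 42.9%, and ACAATG in 0 of 15 against 10.7%. CATATA was in 3 of 15 windows, all of Egr2 (6.75% of all windows), and TGACATCA and TGACNTCA were each in 1 of 15 (2.93% and 7.49%). Those 3 Egr2 windows overlap and hold the same stretch with the match. Since some windows of a gene overlap, the 15 are not all separate promoters. A match describes letters and shows neither binding nor control.

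The 9 genes differed widely in level. Compared per transcript length, the median over the 23 cords was 397 TPM (counts divided by exon length and scaled to the library) for Pmp22, the peripheral myelin protein dosed in inherited neuropathies. Its lowest cord, 298 TPM, lay above the highest cord of Drp2, 90.4 TPM. Below Pmp22 the medians were 68.4 TPM for Drp2, 36.4 TPM for Prx, 18.1 TPM for Ncmap, 9.31 TPM for Scn7a and 7.06 TPM for Gldn. The order ended with 5.84 TPM for Ngfr, 3.72 TPM for Egr2 and 1.66 TPM for Pmp2. From Drp2 downwards, the ranges of each gene and the next overlapped.

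Cords differed strongly in these genes. Prx, the scaffold of the myelin membrane known as periaxin, lay at 27.98 to 77.1 CPM over the 23 cords, with a median of 48.7 CPM. Its coefficient of variation (SD over mean) was 30.9%, above that of 98.4% of the 15872 genes with a mean of 1 CPM or more. The lowest cord was knockout female paclitaxel replicate 3 and the highest wild-type male paclitaxel replicate 3. Egr2 varied by 33.9% and Pmp2, the fatty acid binding protein of peripheral myelin, by 38.7%, though Pmp2 rested on 16 to 91 counts per cord. Drp2, the dystrophin-related partner of periaxin, varied least, by 15.7%. The median coefficient of variation was 20.1% over the 9 genes and 7.80% over all 15872. This comparison was chosen after the values were seen.

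The groups held less of that spread than in a typical gene. The share of variance of log2(CPM + 0.1) lying between the 8 groups was 18.0% for Prx, 8.97% for Drp2 and 22.5% at the median of the 9 genes, against 44.4% at the median of all genes. Ngfr, with 52.9%, was the one member above that median. Fitting 8 means to 23 cords takes up part of any gene's variance even where groups do not differ, and this part was not subtracted. Cords of like genotype and treatment differed widely in Prx. In wild-type paclitaxel cords Prx was 29.005 and 58.7 CPM in females and 58.8, 28.1 and 77.1 CPM in males.

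**Figure D1:**
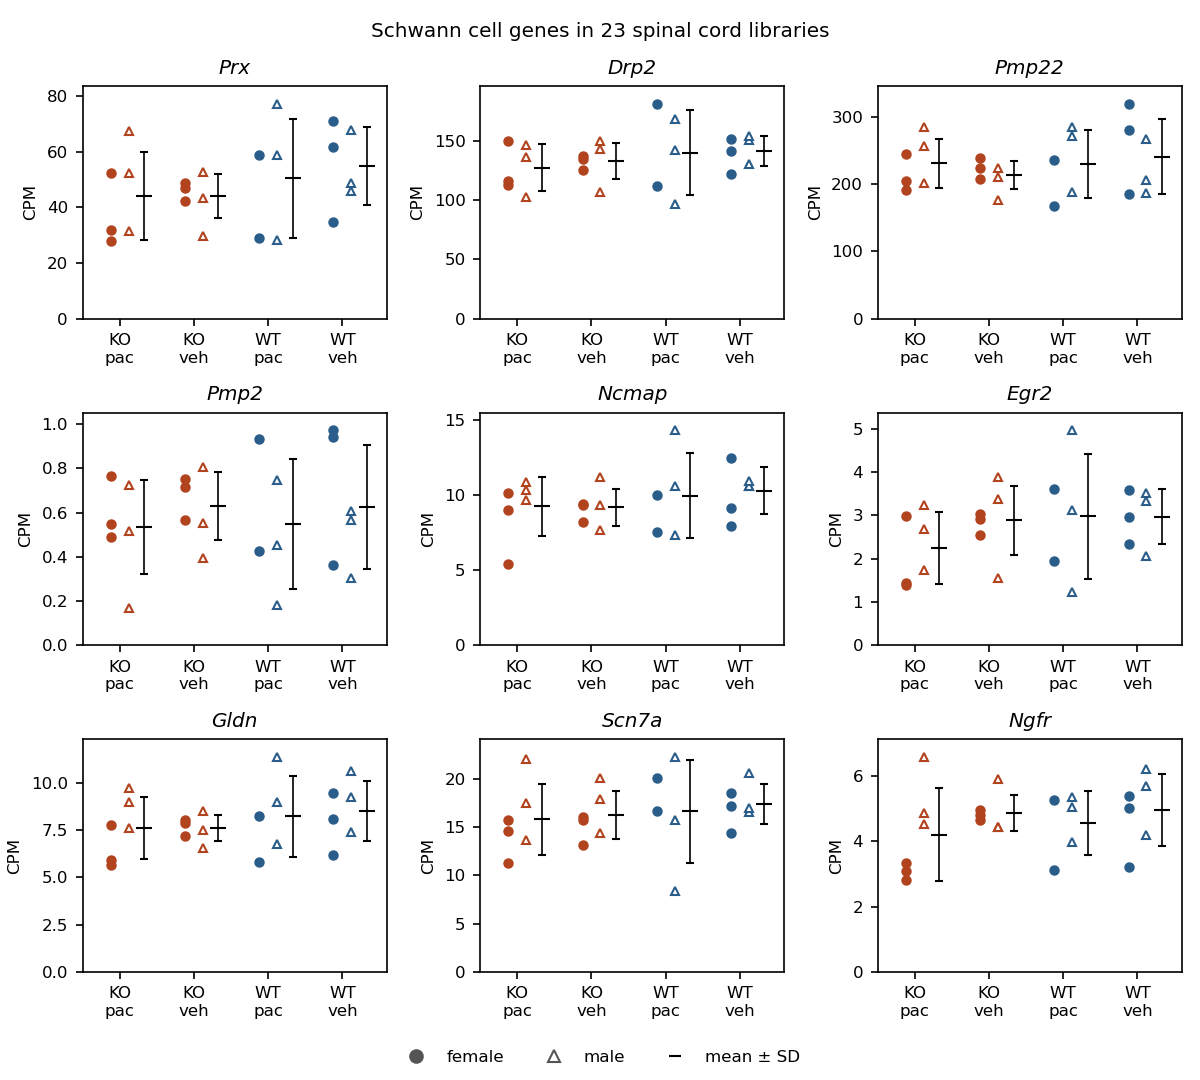
Level of each of the 9 genes in CPM (y axis, from 0) in 23 cords, with knockout (red) and wild-type (blue) cords split by paclitaxel (pac) and vehicle (veh). Filled circles are females, open triangles males, and black bars mean ± SD. The 4 groups overlap in every panel, and Prx runs from 27.98 to 77.1 CPM within the paclitaxel cords.

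The fitted values of all 9 genes were lower in knockout than in wild-type cords, but none passed the test, and the sign of Pmp2 turned with limma voom or without any 1 of 10 cords and that of Ngfr without 1. Prx lay at 27.98, 45.1 and 67.4 CPM (lowest, median, highest; n = 12) in knockout cords and at 28.1, 58.7 and 77.1 CPM (n = 11) in wild-type cords. The 2 genotypes overlapped over nearly their whole range. Over all animals the log2 fold change of Prx was -0.25 (SE 0.21, edgeR adjusted p = 1.00), with a 95% interval of -0.69 to 0.19, so a fall to 0.62 of the wild-type level or a rise to 1.14 of it lay within the interval. Drp2 had -0.12 (SE 0.11), Pmp22 -0.07 (SE 0.11), and Egr2, which lay at 2.80 CPM at the median in knockouts and 3.13 CPM in wild-type cords, -0.22 (SE 0.24). The axon-glia proteins followed, with -0.12 for Gldn, the gliomedin that gathers sodium channels at nodes of Ranvier, and -0.12 for Ncmap, a myelin membrane protein.

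edgeR called 0 of the 9 genes, and 0 of the 9 had an unadjusted p under 0.05, while 0.0118% of the 25372 tested genes were called and 3.36% had such a p. DESeq2 and limma voom also called 0 and had 0 under that unadjusted p. The median log2 fold change of the 9 was -0.12 against 0.00 over all genes, of which 50.5% were negative. Since the 9 move together from cord to cord, their shared sign is not 9 separate observations. Without a filter on low counts, edgeR called Prx (adjusted p = 1.33e-10) and Drp2 (0.0337) at almost the same fold changes. In that fit the prior degrees of freedom, which set how far a gene's own spread is replaced by that of genes of like level, were infinite for every member, against 0.178 for Prx with the filter.

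Within each treatment the picture was alike. Under vehicle 8 of the 9 were lower in knockouts, against 48.7% of all genes, with -0.34 for Prx (SE 0.28, edgeR adjusted p = 0.915). Under paclitaxel 8 of the 9 were lower, against 51% of all genes, with -0.17 for Prx (SE 0.30, edgeR adjusted p = 0.952). Leaving out single libraries, the median of the 9 ran from -0.17 to -0.054 under vehicle and from -0.29 to 0.051 under paclitaxel. edgeR, DESeq2 and limma voom called 0 members in either treatment, with 0 at an unadjusted p under 0.05. Of all genes, edgeR called 0.00788% under vehicle, with 5.2% at that unadjusted p, and 0.00394% under paclitaxel, with 6.18%.

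No gene of the 9 passed the test with paclitaxel. Prx lay at 27.98, 52.1 and 77.1 CPM (lowest, median, highest; n = 11) in paclitaxel cords and 29.7, 47.9 and 70.8 CPM (n = 12) in vehicle cords. Its log2 fold change was -0.09 (SE 0.21, edgeR adjusted p = 0.919, 95% interval -0.53 to 0.34). Ngfr, the p75 neurotrophin receptor that rises in Schwann cells cut off from axons, came nearest to the threshold. It lay at 2.80, 4.55 and 6.59 CPM with paclitaxel and 3.21, 4.89 and 6.22 CPM with vehicle, a log2 fold change of -0.20 (SE 0.10, unadjusted p = 0.0641, edgeR adjusted p = 0.520). Its 95% interval, -0.42 to 0.01, holds no rise above 1.01-fold.

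Of the 9 genes, 8 were lower and 1 higher with paclitaxel, though single signs turned without 1 cord for 5 genes, at a median of -0.06 against 0.01 over all genes, of which 47.1% were negative. edgeR called 0 of the 9 with 0 at an unadjusted p under 0.05, against 0.0197% and 10.2% of all genes. DESeq2 called 0, with 1 under that unadjusted p, and limma voom 0 with 0. In wild-type cords alone 9 of 9 were lower (median -0.10) against 48.1% of all genes, of which edgeR called 0%. In knockout cords 7 of 9 were lower (median -0.04) against 49.4% of all genes, of which it called 0.0236%. Leaving out single libraries, these medians ran from -0.25 to 0.0088 in wild-type and from -0.14 to 0.024 in knockout cords. Again 0 members were called and 0 had an unadjusted p under 0.05 by edgeR, DESeq2 or limma voom, against 7.97% of all genes in wild-type and 11.3% in knockout cords by edgeR. Without the filter on low counts, Prx was called in wild-type cords (adjusted p = 0.0419).

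The response to paclitaxel was not shown to differ between the genotypes. The interaction, the response of knockouts minus that of wild-type mice, was 0.17 for Prx (SE 0.41), 0.23 for Pmp22 (SE 0.22, edgeR adjusted p = 0.793) and -0.34 for Egr2 (SE 0.47). The interaction was negative for 4 of the 9, against 51.7% of all genes. edgeR called 0 members and 0% of all genes, with 0 members and 8.41% of genes at an unadjusted p under 0.05. DESeq2 and limma voom called 0 members, with 0 under that p. For Egr2 the 95% interval ran from -1.34 to 0.65, so sizeable differences in either direction are within it. Pmp22 was called without the filter on low counts (adjusted p = 0.0219).

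**Figure D2:**
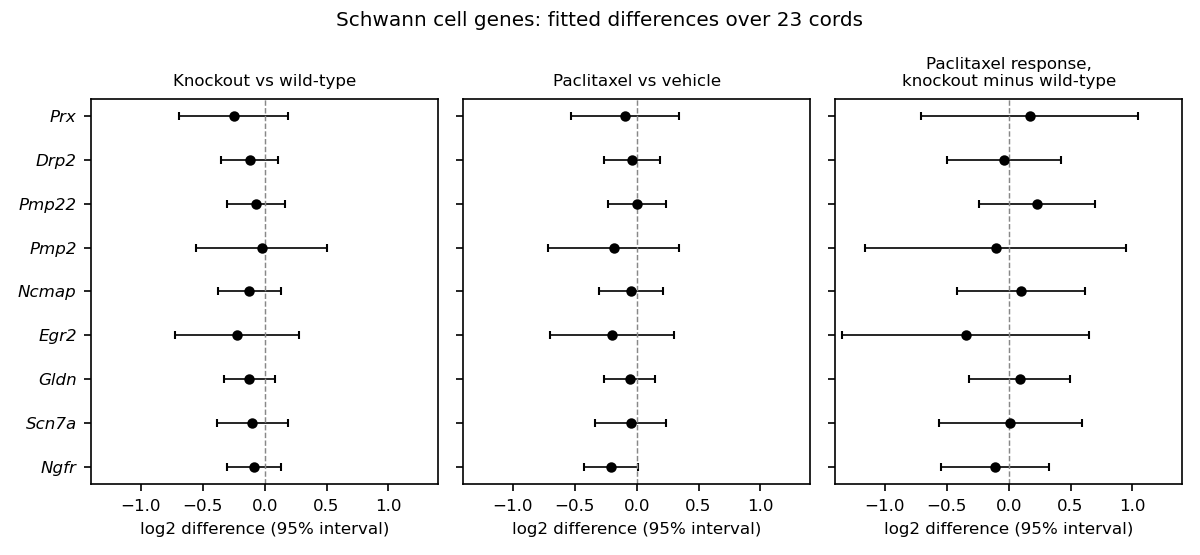
Fitted log2 differences (points) with 95% intervals (bars) of the 9 genes over 23 cords, for knockout over wild-type, paclitaxel over vehicle, and the paclitaxel response of knockouts minus that of wild-type mice. Every interval crosses 0, and those of Egr2, Pmp2 and Prx are the widest in each panel.

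No gene of the 9 passed the test between males and females, where Ngfr and Gldn had the lowest p. Ngfr lay at 3.99, 4.97 and 6.59 CPM (lowest, median, highest; n = 12) in males and 2.80, 4.65 and 5.40 CPM (n = 11) in females. Its log2 fold change was 0.31 (SE 0.10, unadjusted p = 0.00708, edgeR adjusted p = 0.173), and Gldn had 0.24 (SE 0.10, unadjusted p = 0.0251, edgeR adjusted p = 0.292). Pmp2 had the largest difference of the 9, in the other direction, with -0.44 (SE 0.25, edgeR adjusted p = 0.481). Of the 9 genes, 7 were higher and 2 lower in males, where 48.3% of all genes were lower. edgeR, DESeq2 and limma voom each called 0 with 2 at an unadjusted p under 0.05, against 0.918% and 13.2% of all genes by edgeR. Without the filter on low counts Prx, Ncmap, Gldn and Ngfr were called. Among genes of neighbouring tissues, Pi16, a marker of adventitial fibroblasts, and Igf2, a growth factor of the meninges, fell in males, by 0.41 and 0.80 log2 units (adjusted p = 0.0257 and 0.0293 by edgeR). Itgb4, the laminin-binding integrin of the perineurium and of Schwann cells, rose by 0.16 (adjusted p = 0.00416). Their part in the values of Ngfr and Gldn was not tested.

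The genes moved together from cord to cord. Pearson's r of log2(CPM + 0.1) over the 23 cords was positive in all 36 pairs, with a median of 0.68, and 28 of the 36 had a Benjamini-Hochberg adjusted permutation p under 0.05 over the 36 pairs (29 by Spearman's rho). Prx and Pmp22 gave r = 0.90 (rho = 0.91, adjusted p = 4.50e-05 and 6.00e-05, from the smallest p that 100000 permutations can give). Without the 2 cords farthest from the median of Prx, r was 0.90. Egr2 and Drp2 gave r = 0.91 (rho = 0.90, the same adjusted p), and 0.88 without 2 cords. All 8 pairs of Prx passed, with Drp2 at 0.89, Gldn at 0.88, Egr2 at 0.86 and Ncmap at 0.81. Of the 15871 other genes with a mean of 1 CPM or more, members included, 33 (0.208%) had an r of 0.8 or more with Prx. The pairs share library and depth, and a gene enters 8 of the 36. The share of pairs of other genes that would pass was not computed.

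Ngfr and Pmp2 followed the rest least, each in 4 of 8 pairs. Pmp2 against Ngfr was the lowest pair (r = 0.07, rho = 0.17, adjusted p = 0.760 and 0.430). Scn7a, the sodium-sensing channel of non-myelinating Schwann cells, passed in 5 of 8 pairs and with Prx had r = 0.64 (rho = 0.56, adjusted p = 0.00116 and 0.0106). Without 2 cords that r was 0.51. With each group's mean removed, so that only cords of the same genotype, treatment and sex are set against each other, 33 of 36 pairs passed and the median r was 0.76.

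**Figure D3:**
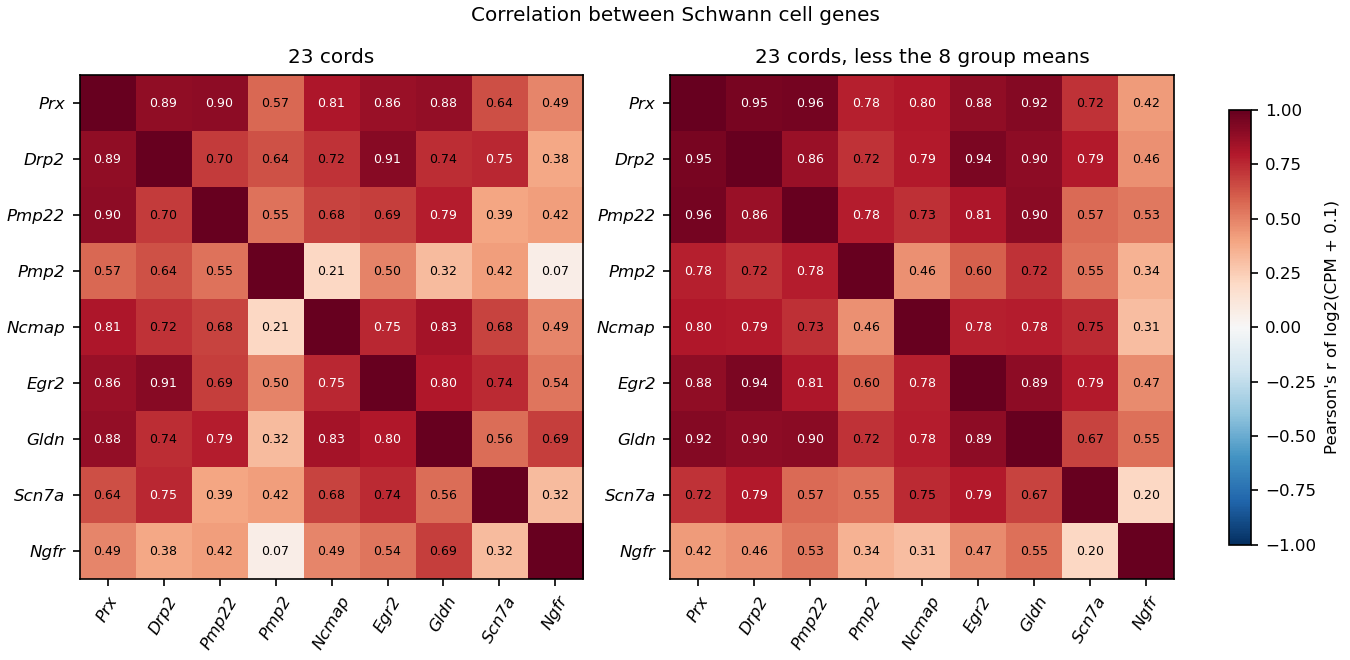
Pearson's r of log2(CPM + 0.1) for each pair of the 9 genes over 23 cords, as measured (left) and after subtracting the means of the 8 groups (right), on a colour scale from -1 to 1. All pairs are positive in both panels, and the rows of Pmp2 and Ngfr are the palest on the left.

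Prx also tracked some Schwann cell genes outside the 9. It was compared with the 73 genes of other lists that had a median of 0.1 CPM or more in the cords. After adjustment over the 73, 9 passed. The share of all genes that would pass was not computed. Of 19 further Schwann cell genes, 5 passed. Among them Cldn19, a claudin of the sheath, gave r = 0.97 (rho = 0.93, adjusted p = 1.46e-04 and 1.82e-04), and Dhh, the hedgehog ligand that Schwann cells send to the perineurium, r = 0.91 (rho = 0.89), with the same adjusted p. Plekha4 had 0.84 and Art3 0.61 (adjusted p = 0.0178). The adjusted p of rho for Art3 was 0.0659. The other 14 did not pass, and the list's median r was -0.04. Several of these, such as Mag and Mal, are also made by oligodendrocytes, and Mag lay at 501 to 687 CPM in the cords.

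Of 9 perineurium and endoneurium genes 2 passed, and the median r of the list was 0.19. Dcn, the small proteoglycan decorin, gave r = 0.72 (rho = 0.71, adjusted p = 0.00170 and 0.00394) and Ccl11, a chemokine of fibroblasts, r = 0.78. Ogn, of 10 meningeal genes, gave r = 0.60 (rho = 0.61, adjusted p = 0.0162 and 0.0247). Of 10 skeletal muscle genes Pvalb, a calcium buffer that cord neurons also make, had r = -0.60 (adjusted p = 0.0208, and 0.0683 for rho of -0.53). Among 10 dorsal root ganglion neuron genes, 5 satellite glia, 6 motor neuron and 8 oligodendrocyte genes, 0 passed, with lowest adjusted p of 0.578, 0.479, 0.876 and 0.0719. A p that misses the threshold does not show that these genes are unrelated to Prx. With group means removed 29 of the 73 passed, some of them in these lists, by permutation p-values that are too small, as for the pairs above. Scn9a, a sodium channel of sensory neurons and 1 of the 10 ganglion neuron genes, then gave r = 0.49 (adjusted p = 0.0436), against 0.27 as measured. The threshold was also passed by 1 satellite glia gene, Cdh19, which is also in the Schwann cell list (r = 0.57, adjusted p = 0.0174), and by 4 of the 8 oligodendrocyte genes, each with a negative r, while 0 of the 6 motor neuron genes passed. Of the 10 skeletal muscle genes, 9 then passed, each with a negative r. With a positive r, 4 of the 10 meningeal genes passed, among them Ogn (r = 0.85), and 3 of the 9 perineurium and endoneurium genes. Of the 19 further Schwann cell genes, 6 passed with a positive and 4 with a negative r.

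**Figure D4:**
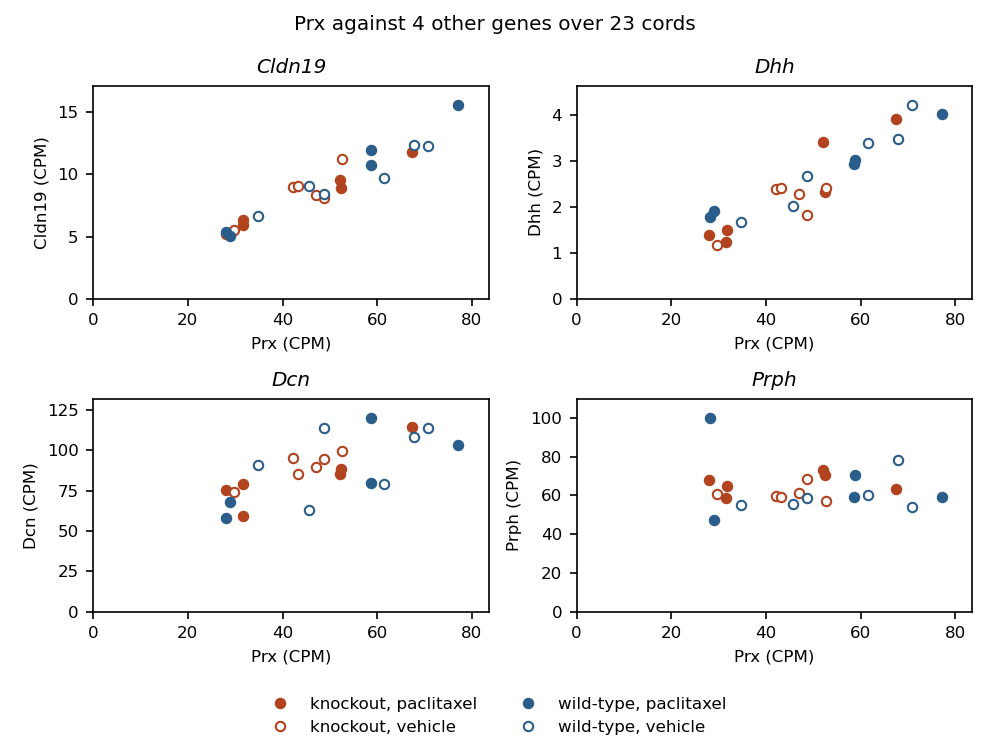
CPM of 4 genes (y axes, from 0) against CPM of Prx (x axes, from 0) in 23 cords. Red is knockout and blue wild-type, filled is paclitaxel and open is vehicle. Cldn19 and Dhh climb with Prx (r = 0.97 and 0.91), and Dcn does so more loosely (0.72). Over the 23 cords Prph (-0.04), a filament of ganglion and motor neurons, does not. Without the 2 cords farthest from the median of Prx, r was 0.96 for Cldn19, 0.92 for Dhh, 0.67 for Dcn and 0.37 for Prph.

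Over all genes with a mean of 1 CPM or more, the 10 whose pattern was most like the mean of the 9 were Cldn19 (r = 0.95), Fam178b (0.94), Arhgap19, Gas2l3, Lamb1, Slc36a2, Shc4, Chrdl1, Gm48697 and Plekha4 (0.90), over 23 cords and with no test. Of the 15864 genes compared, 34 (0.214%) had an r of 0.8 or more.

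No gene of the lists around the pathway was called by genotype or treatment. Of all 25372 tested genes, edgeR called 0.0118% for genotype and 0.0197% for paclitaxel. With so few calls, 0 in a short list is not a result about that list. Of the periaxin complex and basal lamina list, 0 of 11 genes were called in knockouts against wild-type mice or with paclitaxel. The same held for 0 of 11 EGR2 partners and regulators, 0 of 7 node partners of gliomedin, 0 of 8 neurotrophin partners of Ngfr and 0 of 10 genes of injured or repair Schwann cells. In the injury list, which includes Ngfr, 8 of 10 were higher with paclitaxel, at a median of 0.08 log2 units, against 0.01 over all genes, of which 47.1% were negative. Lists of other tissues lay either way. Higher were 5 of 5 endothelium genes at a median of 0.17 and 9 of 10 skeletal muscle genes at 0.20. In wild-type cords alone, 8 of 10 skeletal muscle genes were lower. Over all animals 6 of 8 oligodendrocyte, 4 of 5 microglia, 3 of 5 astrocyte, 6 of 10 meningeal and 6 of 10 perineurium and endoneurium genes were lower. In the ganglion-like library 6 of the 10 genes of the injury list lay above every cord and 3 below. Olig1, 1 of those below, was at 3.42 CPM there, against a cord median of 132 CPM. Gdnf and Artn were low in the cords, with medians of 0.15 and 0.53 CPM. The part of other tissues in the values of the injury list was not tested.

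In the ganglion-like library all 9 genes lay above every cord. The ratio to the cord median was smallest for Drp2, at 456 CPM against 96.5 to 181 CPM in the cords (3.33-fold). For the myelin genes it was 8.87-fold for Prx (432 CPM), 7.36-fold for Pmp22 (1647 CPM), 8.10-fold for Ncmap (78.2 CPM), 7.17-fold for Egr2 (21.3 CPM), 6.64-fold for Pmp2 (3.75 CPM) and 6.26-fold for Gldn (49.2 CPM). Scn7a and Ngfr stood further out, with 758 CPM against 8.36 to 22.3 CPM (45.7-fold) and 459 CPM against 2.80 to 6.59 CPM (95.1-fold). Both are also made by sensory neurons or their satellite cells. All 10 skeletal muscle genes were above every cord as well. This is a single library with no replicate, so no test applies.

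**Figure D5:**
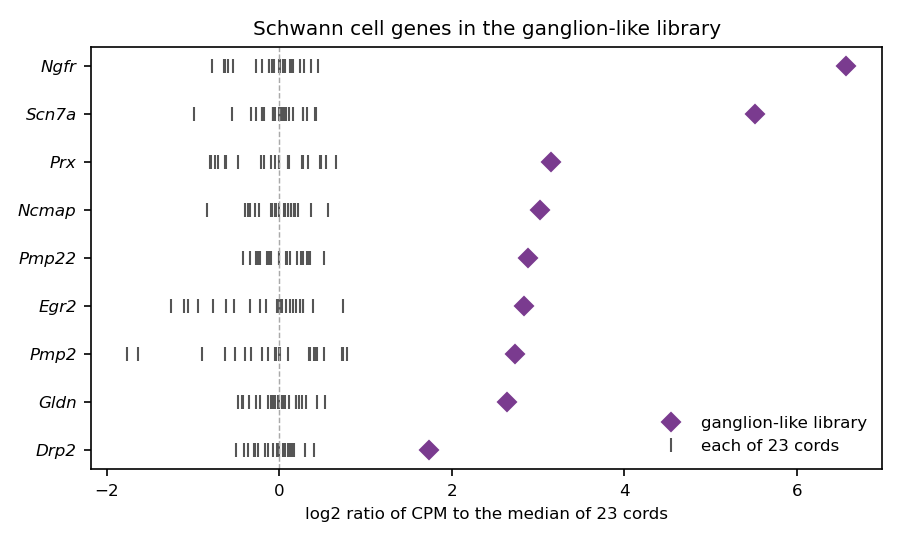
log2 ratio of CPM to the median of 23 cords (x axis) for each gene, in the ganglion-like library (purple diamonds) and in each cord (grey ticks). Every diamond lies right of all ticks, from Drp2 (1.74) to Ngfr (6.57).

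Including that library turned the direction of the treatment comparison without calling a member. Over 24 libraries all 9 genes were higher with paclitaxel, at a median log2 fold change of 0.42, and edgeR called 0 of the 9, with a lowest adjusted p of 0.653. Knockout against wild-type kept 9 of 9 lower and its median was -0.61 (lowest adjusted p = 0.924). The library is in the wild-type paclitaxel group, so both shifts carry its values.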

How the data were processed

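RNA was read from lumbar cord of 24 mice. The authors deposited raw counts per gene name, 1 table for all libraries, with no normalization. Per the submitters' processing notes, STAR did the alignment and featureCounts 1.6.2 the counting, over exons of the Ensembl GRCm38 annotation release 96 without strand, per the file headers. The command held no read-pair option, and among genes holding 1 to 20 counts 34.4 to 37.3% were odd, so mates may be counted separately. Overlapping, antisense and near-identical genes cannot be told apart.

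The 9 genes and all lists were chosen with earlier results of these data known. Named were all 9 genes, list genes that were called, and the 10 genes most like the mean of the 9. Values of some list genes are not reported here. The main test was that of edgeR 4.0.16, run in R 4.3.3 (filterByExpr, TMM factors, robust quasi-likelihood test on 8 group means, 23 libraries), with Benjamini-Hochberg adjustment over 25372 genes and calls under 0.05. Alternatives were DESeq2 1.42.0, limma 3.58.1 (voom), other scalings, no filter, all 24 libraries, only the groups compared, a replicate block and leaving out each library. Intervals of fold changes use each gene's residual and prior degrees of freedom. CPM of single libraries rest on library totals without TMM factors. TPM divides by the exon length in the deposited table. Correlations used log2(CPM + 0.1), two-sided permutation tests with 100000 resamples (scipy 1.17.1). On simulated counts for knockout against wild-type, 80.6% of 67 genes changed 1.25-fold and 100% of 66 changed 2-fold were called. That share is over genes drawn from the whole table and does not apply to the 9, whose SD within groups was 0.26 to 0.59 log2 units, against a median of 0.097 over genes with a mean of 1 CPM or more.

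Promoter windows are RefSeq sequences of GRCm38.p6, matched by symbol. All 10 motifs searched are reported, and the 2 set in capitals were picked after the matches were seen. The comparisons of variation, of variance shares and of prior degrees of freedom were also chosen after seeing the data. p-values measure the spread between animals.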

Additional observations from a re-analysis of the deposited data

Results flagged for a closer look

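All 9 genes were far above the cords in wild-type female paclitaxel replicate 3, the library kept out of the comparisons. There Prx lay at 432 CPM, Pmp22 at 1647 CPM, Pmp2 at 3.75 CPM, Egr2 at 21.3 CPM, Drp2 at 456 CPM, Ncmap at 78.2 CPM, Gldn at 49.2 CPM, Scn7a at 758 CPM and Ngfr at 459 CPM.

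Among 36 combinations of gene and genotype-by-treatment group, a single cord stood away from the others of its group in 2, where chance gives about 1 in 20. Ncmap was 5.39 CPM in knockout female paclitaxel replicate 3, the lowest of its group, and Ngfr was 5.91 CPM in knockout male vehicle replicate 2, the highest of its group.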

How the results depend on the processing

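Over 23 cords, edgeR called 0 of the 9 genes in each of the 8 comparisons, and the count was 0 under RLE size factors, no TMM factors, DESeq2, limma voom, only the groups compared, the replicate block, all 24 libraries and without each of 23 libraries (lowest 0, highest 0). Without a filter on low counts it was 2 for knockout against wild-type over all animals, 1 for paclitaxel in wild-type, 2 for knockout under vehicle, 1 for the interaction and 4 for males against females. That fit gave every member infinite prior degrees of freedom, against a median of 13.8 over tested genes with the filter, where 5 of the 9 members were under 1. Replicate numbers are not stated to pair the animals. The median correlation of deviations from group means was 0.015 over 77 same-number pairs and -0.014 over 154 different-number pairs. It was over 0.1 in 23 of the 77 and in 25 of the 154. Whether libraries of the same number share a batch was not tested. With the replicate block Pmp22 had -0.0088 with paclitaxel instead of 0.0016.

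Of 540 recomputed fold changes of single genes for genotype and treatment, 496 kept sign and side of the threshold, 2 passed it and 42 changed sign, none of them called. Over all 24 libraries the paclitaxel values turned to 0.42 for Prx, 0.16 for Pmp2, 0.24 for Egr2, 0.17 for Drp2, 0.44 for Ncmap, 0.36 for Gldn, 0.94 for Scn7a and 1.12 for Ngfr. Pmp22 turned to -0.00118 with RLE size factors and to -0.00123 with DESeq2, and Pmp2 in knockouts to 0.0020 with limma voom. Leaving out single libraries gave -0.14 to 0.14 for Pmp2 and -0.17 to 0.018 for Ngfr in knockouts, and with paclitaxel -0.25 to 0.0023 for Prx, -0.068 to 0.050 for Pmp22, -0.14 to 0.032 for Drp2, -0.11 to 0.011 for Ncmap and -0.14 to 0.026 for Scn7a. The cause was not tested.

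The 28 correlated pairs became 26 to 30 without single libraries. The 9 genes correlated with Prx became 7 to 12 without single libraries. With group means removed they became 29, by permutation p-values that are too small. Over all 24 libraries they became 59, where 1 library far from the rest enters. Pmp2, at 16 to 91 counts per cord, is the member whose precision depth limits most.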

Other observations

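Among the genes least like the mean of the 9 were 2 Hox genes, Hoxc8 (r = -0.76) and Hoxc6 (r = -0.72), over 23 cords. Hox genes mark position along the body axis. The family was looked at after these values were seen and is a description without a test. Of 32 Hox genes with a mean of 1 CPM or more, 22 had a negative r with the mean of the 9, at a median of -0.16 and a range of -0.76 to 0.52, where 45.9% of all genes were negative. Without the 2 cords farthest from the median, r was -0.74 for Hoxc8 and -0.58 for Hoxc6. At the other end were Hoxd11 (r = 0.52), Hoxd10 (0.50), Hoxc11 (0.48) and Hoxa11 (0.41). Without those 2 cords they had 0.66, 0.66, 0.65 and 0.56. The family thus went both ways, and a relation to the segment level of the cord piece was not tested.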
